A study of Sus scrofa with 9 samples.

Results

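The aquaporins are membrane pores for water, and some also pass glycerol or other small solutes. The genes described here are the renal members AQP1, AQP2, AQP3, AQP4, AQP6, AQP7 and AQP11 with AVPR2, the vasopressin V2 receptor, 8 genes in all. They were chosen by name, with earlier results of these data known. A gene was taken where a probe set carried its symbol alone in the array's annotation, and 7 of the 8 had 1 such probe set each, out of 12362 genes and 19124 probe sets on the array. AQP1, the water channel of proximal tubule, thin descending limb and descending vasa recta, had no such probe set and was not analysed here. Of the 7 measured genes, AQP4 was dim, meaning that its mean lay in the lowest 25% of all probe sets. The other 6 lay above that cut, which does not by itself show that a gene is expressed. AVPR2 was the lowest of them, with a mean of 5.67.

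Kidney biopsies came from 9 male Yorkshire pigs of 30 kg, 3 animals per group and 1 Affymetrix array per animal; no age is given in the sources used here. NEVKP (normothermic ex vivo kidney perfusion) kidneys were perfused warm on a circuit outside the body for 8 h. SCS (static cold storage) kidneys were kept cold and without flow for 8 h. No Storage kidneys were put back without either. All 9 right kidneys had 30 min of warm ischemia and a flush before autotransplantation into the same animal, all animals lost the left kidney at that operation, and all biopsies date from post-operative day 3. An unoperated kidney was not among the samples, so every level is that of an injured graft.

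In the collecting duct, vasopressin from the pituitary binds AVPR2 on the blood side of the principal cell and raises cyclic AMP. Protein kinase A then phosphorylates AQP2, which moves from vesicles to the urinary membrane, while AQP3 and AQP4 let the water leave on the blood side. AQP6 sits in vesicles of acid-secreting intercalated cells, as shown in rodents. AQP7 passes water and glycerol at the brush border of the straight proximal tubule, and AQP11 lies in the endoplasmic reticulum of proximal tubule cells, as shown in mice. In the pig RefSeq gene table (assembly Sscrofa11.1), AQP2, AQP5 and AQP6 lie side by side with 0 protein-coding genes between neighbours, as do AQP3 and AQP7.

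The values are log2 intensities, so that a difference of 1 is a doubling. Array medians ran from 5.70 to 5.80, arrays correlated at 0.974 to 0.991 across probe sets, and the number of arrays limits the precision. The labelled tissue was borne out by its markers. UMOD, the protein of the thick ascending limb, read 8.84 to 12.96 over the 9 arrays, and the mean level of 21 proximal tubule markers read 9.17 to 10.25. On the high side, NEVKP replicate 2 stood apart most. It held 86 probe sets at least 1 log2 unit above all other arrays, against 0 to 38 on each of the others. On the low side SCS replicate 2 held the most, with 28 probe sets at least 1 log2 unit below all other arrays. NEVKP replicate 2 held 15 such probe sets.

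Several transcripts of the renal medulla had their highest value in NEVKP replicate 2, as had AQP2, AQP3, AQP7 and the dim AQP4. AQP6, AQP11 and AVPR2 had theirs in other kidneys. In NEVKP replicate 2, SLC14A1, a urea transporter of descending vasa recta, read 8.46, while the other 8 arrays lay between 3.46 and 4.21, a gap of 19.0-fold to the next. SLC6A12, the betaine transporter that medullary cells use against high salt, read 7.14 there and 4.94 to 5.44 on the others. SLC14A2, the urea transporter of the inner medullary collecting duct, read 4.80 there and 3.44 to 4.06 on the others. PTGS2, the inducible cyclooxygenase, read 7.53 there and 4.76 to 5.79 on the others. These genes were picked for display after their values were seen, from a list of 21 genes of the medullary osmotic response, of which 13 were measured. Of those 13, 10 had their highest value on NEVKP replicate 2, and so did 9 of 10 thin limb and thick ascending limb markers, 7 of 11 endothelial and vasa recta markers and 7 of 17 leukocyte markers. These lists share genes, so the counts are not separate. SLC12A1, KCNJ1 and PTGER3 are in both the medullary and the thick limb list, and SLC14A1 is in both the medullary and the vasa recta list. The share of all probe sets with their highest value on NEVKP replicate 2 was not counted. The mean level of the 13 genes was 8.37 in that kidney and 7.13 and 7.17 in the other NEVKP kidneys, against 7.02 to 7.06 in SCS and 6.97 to 7.23 in No Storage kidneys. The part of this in the results was not tested. NEVKP differences of the 7 measured genes are given with and without NEVKP replicate 2. So are the printed differences of other named genes and lists that lost a call or moved by more than 1.5 times without it.

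**Figure D1:**
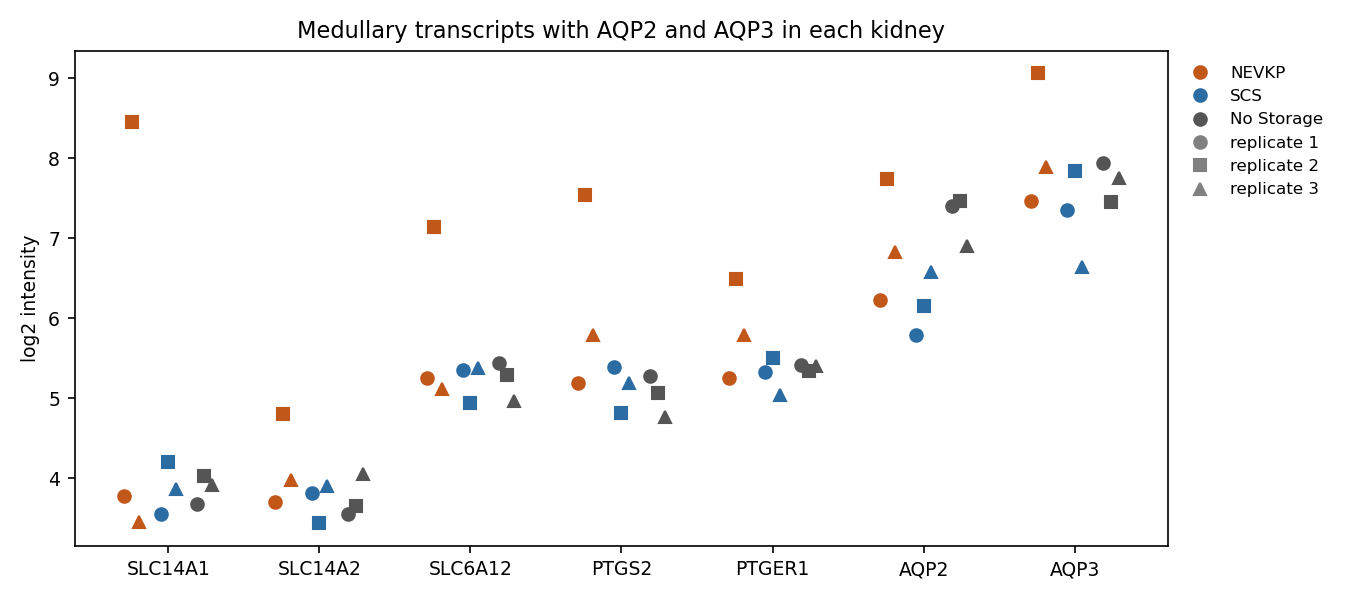
Log2 intensity (vertical axis) of 5 medullary transcripts and of AQP2 and AQP3 in each of the 9 kidneys, with colours for NEVKP, SCS and No Storage and point shapes for replicates. NEVKP replicate 2 is the highest point for all 7 genes, from 8.46 for SLC14A1, where the next array reads 4.21, to 7.74 for AQP2, where the next reads 7.46.

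The study set SCS against No Storage to ask how cold-stored grafts differ on day 3 from grafts that were not stored. In this comparison 4 channels lay lower at an unadjusted p under 0.05, namely AQP2, AQP6, AQP7 and AQP11, by log2 differences between -0.91 and -1.37. None of the 7 genes passed an adjusted p of 0.05 in limma over all probe sets, where 31 of 19124 passed, or 0.162%. That count over all probe sets was 158 without NEVKP replicate 2, 147 without SCS replicate 3, and 0 to 2 without any other array. At an unadjusted p under 0.05, 4 of 7 genes were lower and 0 higher, while 7.79% of all probe sets were lower and 7.75% higher. The median difference was -0.91 over the 7 genes and 0.01 over all probe sets. AQP3, AQP4 and AVPR2 lay closer to No Storage, at -0.44, -0.03 and 0.01. Altogether, 6 of 7 differences were below 0, against 48.3% over all probe sets.

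AQP2, the vasopressin-regulated channel of the principal cell (NCBI Gene ID 100147810), read 5.79, 6.15 and 6.57 in SCS kidneys, against 7.41, 7.46 and 6.91 in No Storage kidneys. The groups did not overlap, which held for 3 of the 7 genes in this direction (AQP2, AQP6 and AQP7) and for 11.6% of all probe sets. AQP2 averaged 6.17 ± 0.39 in SCS and 7.26 ± 0.31 in No Storage (SD, n = 3 each), a 2.12-fold lower level in SCS. The log2 difference was -1.09 (95% interval -1.85 to -0.32, limma adjusted p = 0.170). It was -0.90 to -1.29 as each array was left out in turn. Fewer principal cells and less AQP2 RNA per cell cannot be told apart in bulk tissue.

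AQP6, the vesicle channel of intercalated cells (NCBI Gene ID 100145893), read 5.64, 6.48 and 6.06 in SCS kidneys, against 6.91, 6.98 and 7.03 in No Storage kidneys. The No Storage kidneys lay within a narrow band and every SCS kidney lay below it. AQP6 had the smallest p of the family, with a log2 difference of -0.91 (95% interval -1.38 to -0.45, limma adjusted p = 0.0946). The limma adjusted p ran from 0.0507, with array weights, to 0.286, without No Storage replicate 3, over the alternatives.

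AQP7, the water and glycerol channel (NCBI Gene ID 100126283), read 7.52, 6.94 and 7.69 in SCS kidneys, against 8.61, 8.14 and 8.21 in No Storage kidneys. All SCS kidneys were again below all No Storage kidneys, with a log2 difference of -0.93 (95% interval -1.71 to -0.15, limma adjusted p = 0.237). AQP11, the intracellular channel (NCBI Gene ID 100127151), read 7.29, 6.33 and 8.10 in SCS kidneys, against 9.30, 8.67 and 7.87 in No Storage kidneys. Here SCS replicate 3 lay above No Storage replicate 3, so the groups overlapped. The log2 difference was the largest of the 7 at -1.37 (95% interval -2.42 to -0.33, limma adjusted p = 0.198), with the widest interval, and it was -0.92 without SCS replicate 2 and -1.81 without SCS replicate 3. The unadjusted p of AQP7 and AQP11 passed 0.05 under 14 of 16 alternatives each, and that of AQP2 and AQP6 under 16 of 16.

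AQP3, the basolateral channel of the principal cell (NCBI Gene ID 100126235), read 7.35, 7.84 and 6.64 in SCS kidneys, against 7.94, 7.45 and 7.75 in No Storage kidneys. Only SCS replicates 1 and 3 lay below all No Storage kidneys, and SCS replicate 2 lay above 2 of them. Its log2 difference was -0.44 (95% interval -1.32 to 0.44, limma adjusted p = 0.663), and it was -0.12 without SCS replicate 3. AVPR2 (NCBI Gene ID 397462) read 5.62, 6.03 and 5.60 in SCS kidneys, against 5.87, 5.61 and 5.75 in No Storage kidneys. Its mean over all arrays, 5.67, lay just under the array medians of 5.70 to 5.80, and its height above background was not tested. The groups overlapped, and the interval of the difference was -0.31 to 0.33. A change in the signal of this probe set as large as that measured for AQP2 lies outside that interval. The direction of this near-zero difference turned when arrays were centred on their medians, at -0.04. The dim AQP4 (NCBI Gene ID 100126277) read 2.28 to 2.52 in SCS and 2.28 to 2.56 in No Storage kidneys.

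**Figure D2:**
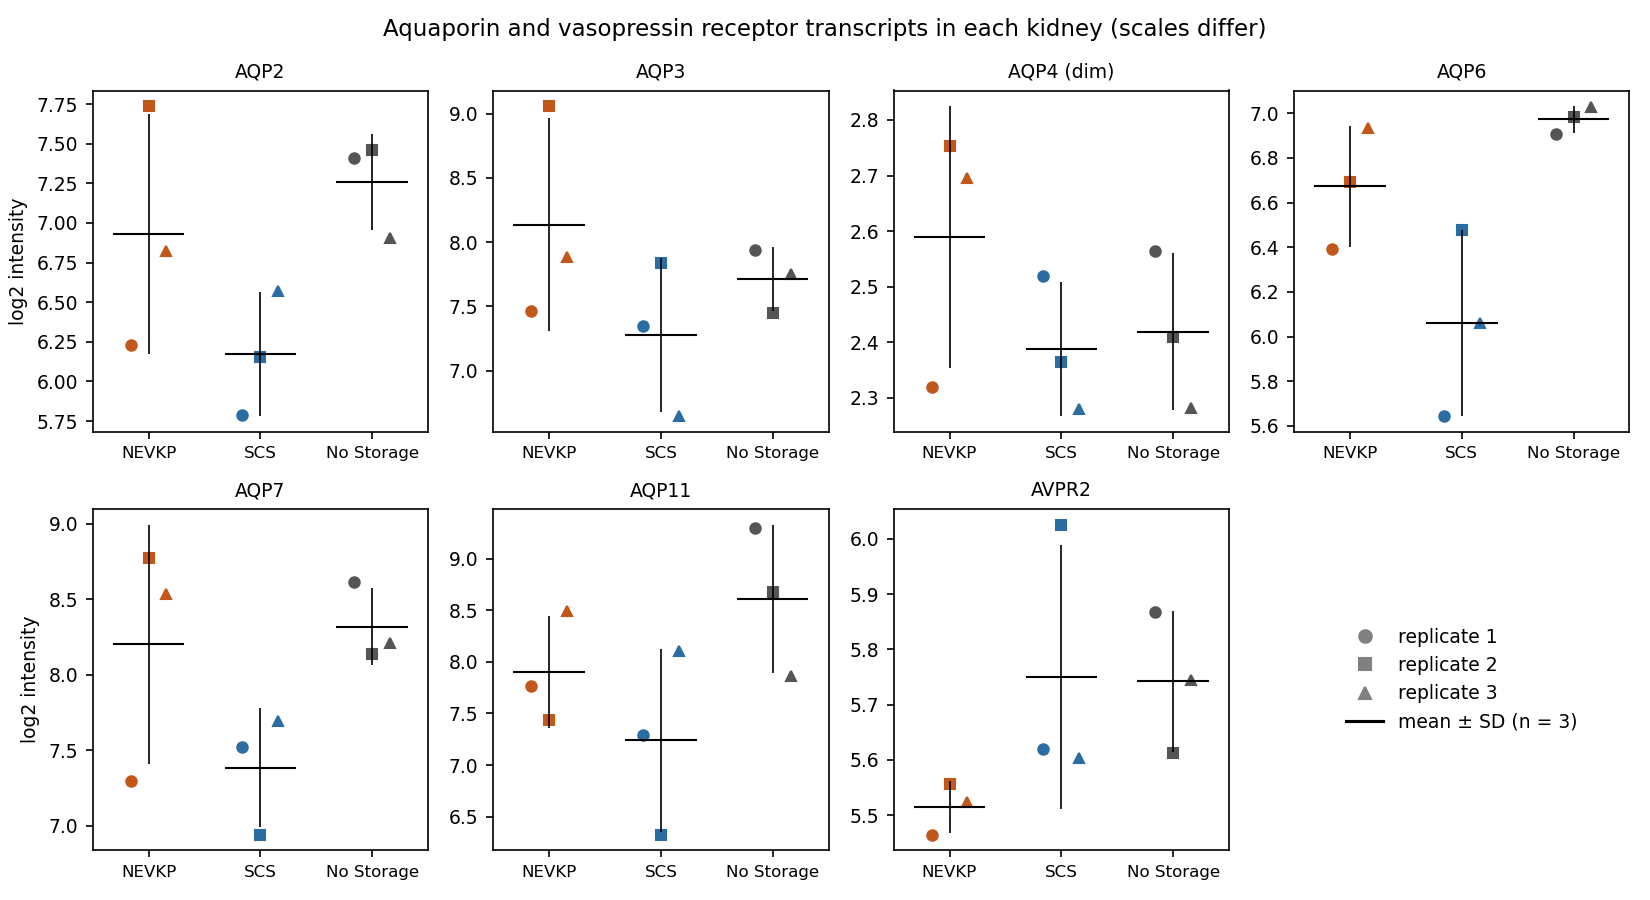
Log2 intensity of the 7 measured genes in each kidney, with NEVKP, SCS and No Storage from left to right, point shapes for replicates and black lines for the mean ± SD (n = 3); vertical scales differ between panels. AQP2, AQP6 and AQP7 show all SCS points below all No Storage points, and AVPR2 shows all NEVKP points, 5.46 to 5.56, below all others.

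NEVKP was set against No Storage to ask how warm-perfused grafts differ from grafts without storage. No channel differed at an unadjusted p under 0.05. Differences were -0.33 for AQP2, 0.42 for AQP3, 0.17 for AQP4, -0.30 for AQP6, -0.12 for AQP7 and -0.71 for AQP11. With AVPR2, 5 of 7 genes had a difference below 0, as did 52.3% of all probe sets. Of 7 genes, 0 passed in limma with adjustment, as did 0 of all probe sets (0%), and 0 passed at an unadjusted p under 0.05, against 9.07% of all probe sets. The limma adjusted p ran from 0.664 to 0.956. The dim AQP4 read 2.32 to 2.75 in NEVKP kidneys, around the No Storage values.

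AQP2 read 6.23, 7.74 and 6.82 in NEVKP kidneys, against 7.41, 7.46 and 6.91 in No Storage kidneys. NEVKP replicate 2, the kidney rich in medullary transcripts, was the only NEVKP kidney above any No Storage kidney. Without it the log2 difference of AQP2 was -0.73 (95% interval -1.34 to -0.12, limma adjusted p = 0.779), with an unadjusted p of 0.0241, against -0.33 (interval -1.09 to 0.44) with it. AQP3 read 7.46, 9.06 and 7.89 in NEVKP kidneys, and its difference from No Storage was 0.42 with NEVKP replicate 2 and -0.04 without it. AQP7 read 7.29, 8.77 and 8.54 in NEVKP kidneys, so that replicate 1 lay near the SCS kidneys and the other NEVKP kidneys near No Storage. Its difference from No Storage was 0.34 without NEVKP replicate 1 and -0.40 without NEVKP replicate 2. Without NEVKP replicate 2 the difference was 0.089 for AQP4, -0.31 for AQP6, -0.48 for AQP11 and -0.25 for AVPR2.

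AQP6 read 6.39, 6.69 and 6.93 in NEVKP kidneys, which put replicates 1 and 2 below all No Storage kidneys and replicate 3 among them. AQP11 read 7.76, 7.44 and 8.50 in NEVKP kidneys, overlapping No Storage at 7.87 to 9.30. Its interval, -1.76 to 0.33, is too wide to place NEVKP at either neighbour. AVPR2 read 5.46, 5.56 and 5.52 in NEVKP kidneys, below every No Storage kidney (5.61 to 5.87) and every SCS kidney (5.60 to 6.03). The difference was -0.23 against No Storage (95% interval -0.54 to 0.09, limma adjusted p = 0.664) and -0.23 against SCS (interval -0.55 to 0.08, adjusted p = 0.724). Arrays that lay fully below their comparison group were found for 8.57% of probe sets against No Storage and 6.78% against SCS.

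The comparison of NEVKP with SCS asks how the storage methods differ. AQP2, AQP3, AQP4, AQP6, AQP7 and AQP11 were all higher in NEVKP in mean, by 0.20 to 0.86 on the log2 scale, and AVPR2 was lower, so that 1 of 7 differences lay below 0, against 54% for all probe sets. Again 0 of 7 passed in limma with adjustment, as did 0 of all probe sets (0%). AQP6 and AQP7, 2 of 7, were higher at an unadjusted p under 0.05, against 3.8% of all probe sets. SCS kidneys enter both this comparison and the first, and No Storage kidneys enter both comparisons with No Storage, so these differences are not independent of each other.

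AQP6 averaged 6.67 ± 0.27 in NEVKP and 6.06 ± 0.42 in SCS (SD, n = 3 each), a log2 difference of 0.61 (95% interval 0.15 to 1.08, limma adjusted p = 0.599). It was 0.60 without NEVKP replicate 2, where its unadjusted p was 0.0343. AQP7 averaged 8.20 ± 0.79 in NEVKP and 7.38 ± 0.39 in SCS, a difference of 0.82 (interval 0.04 to 1.60, limma adjusted p = 0.655). AQP3 averaged 8.14 ± 0.83 in NEVKP and 7.28 ± 0.60 in SCS, a difference of 0.86 with all arrays (limma adjusted p = 0.668) and 0.40 without NEVKP replicate 2 (adjusted p = 0.825). AQP2 averaged 6.93 ± 0.76 in NEVKP and 6.17 ± 0.39 in SCS, a difference of 0.76 with all arrays (limma adjusted p = 0.668) and 0.35 without NEVKP replicate 2 (adjusted p = 0.820). The AQP7 difference was 0.53 without that kidney, with an unadjusted limma p of 0.164, so AQP7 no longer passed 0.05 there. The AQP11 difference was 0.89 without that kidney and 0.66 with it. AQP4 differed by 0.12 and AVPR2 by -0.26 without it. In an F test among all groups, 0 of 7 genes passed with adjustment in limma, against 1 probe set of 19124 (0.00523%). At an unadjusted p under 0.05 the F test counted 4 of 7 genes and 12.8% of all probe sets.

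**Figure D3:**
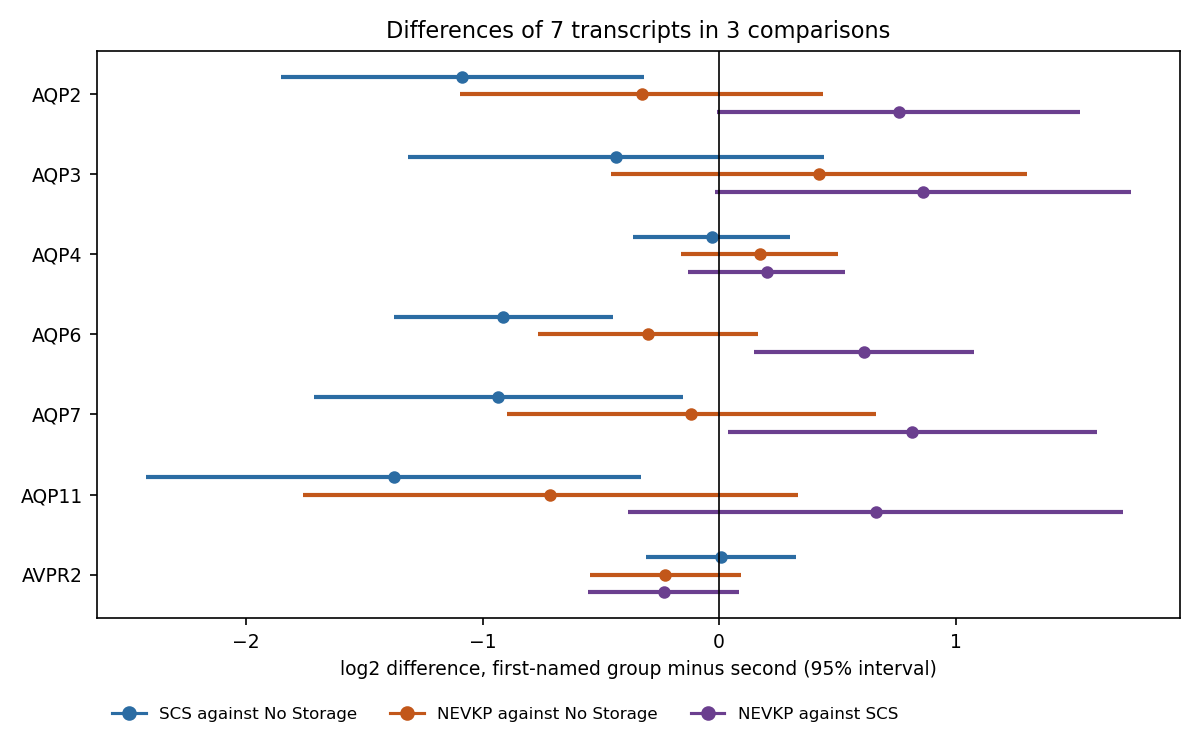
Log2 differences (points) with 95% intervals (lines) from limma for each of the 7 genes, coloured by comparison, with the first-named group minus the second. In SCS against No Storage the intervals of AQP2, AQP6, AQP7 and AQP11 lie below 0 before any adjustment, and in NEVKP against SCS those of AQP6 and AQP7 lie above 0.

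By mean level the order over groups was No Storage, NEVKP, SCS from high to low for AQP2, AQP6, AQP7 and AQP11. Neighbours in that order overlapped between NEVKP and No Storage and between NEVKP and SCS for all 4, so the groups were separated only between the ends, and there for AQP2, AQP6 and AQP7. The order was NEVKP, No Storage, SCS for AQP3 and AQP4, with all groups overlapping, and SCS, No Storage, NEVKP for AVPR2, with NEVKP apart from the others. The range within a group differed between genes. AQP2, AQP3 and AQP7 spanned 1.51, 1.60 and 1.48 log2 units within NEVKP, against 0.55, 0.49 and 0.48 within No Storage. AQP6 spanned 0.54 within NEVKP and 0.83 within SCS, against 0.12 within No Storage. The order was the other way for AQP11, which spanned 1.06 within NEVKP and 1.43 within No Storage, and for AVPR2, which spanned 0.092 within NEVKP and 0.25 within No Storage.

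Mean levels of several cell type marker lists also differed between groups, and their part in the results was not tested. For the principal cell and connecting tubule, 16 of 22 markers were measured, 1 of them dim, and their mean level was 7.25 to 7.46 in NEVKP and 6.91 to 7.47 in SCS, against 7.50 to 7.62 in No Storage. SCNN1A, the sodium channel subunit of these cells, read 7.15 to 7.48 in SCS, against 7.93 to 8.06 in No Storage kidneys. HSD11B2, the enzyme that keeps cortisol off the mineralocorticoid receptor, read 8.07, 9.12 and 9.81 in SCS, against 10.31 to 10.51 in No Storage. KRT19, a keratin of these cells, was higher, at 10.31 to 10.78 in SCS, against 9.63 to 9.74 in No Storage (log2 difference 0.80, limma adjusted p = 0.0646), and KCNE1, a potassium channel subunit, differed by 0.58 (adjusted p = 0.317). These markers are examples named after their values were seen. GATA3, a transcription factor of the same cells, differed by 0.02 between SCS and No Storage (95% interval -0.42 to 0.45, limma adjusted p = 0.985). Of the 16 markers, 12 had a mean below No Storage in SCS and 4 above, against 48.3% of all probe sets below. The median difference over them was -0.17. At an unadjusted p under 0.05, 4 of 16 were lower and 2 higher in SCS than in No Storage, against 7.79% and 7.75% of all probe sets.

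For intercalated cells, beside AQP6, 14 of 17 markers were measured, 1 of them dim. Their mean level was 6.88 to 7.70 in NEVKP and 6.78 to 7.49 in SCS, against 7.81 to 8.12 in No Storage. All 14 had a mean below No Storage in SCS and 13 of 14 in NEVKP, against 48.3% and 52.3% of all probe sets. At an unadjusted p under 0.05, 9 of 14 were lower in SCS and 11 of 14 in NEVKP, against 7.79% and 4.4% of all probe sets. Without NEVKP replicate 2 the NEVKP count was 3 of 14, against 512 of 19124 probe sets lower in that fit. NEVKP replicate 2 had the lowest marker mean of the NEVKP kidneys at 6.88, but an AQP6 value of 6.69, between those of the other NEVKP kidneys. For the proximal tubule, beside AQP7 and AQP11, 21 of 27 markers were measured. Their mean level was 9.32 to 10.00 in NEVKP and 9.17 to 9.75 in SCS, against 10.06 to 10.25 in No Storage. In SCS 20 of 21 had a mean below No Storage, and in NEVKP 19 of 21. At an unadjusted p under 0.05, 12 of 21 were lower and 1 higher in SCS, against 7.79% and 7.75% of all probe sets. In NEVKP 5 of 21 were lower, against 4.4%. Without NEVKP replicate 2 it was 1 of 21, against the same 512 of 19124 probe sets. The median difference from No Storage was -0.73 in SCS. For NEVKP it was -0.50, and -0.23 without NEVKP replicate 2. SCS replicate 2 had the lowest of these means, 9.17, and also the lowest AQP7 (6.94) and AQP11 (6.33). NEVKP replicate 2, with the second lowest mean of 9.32, had the highest AQP7 of all kidneys at 8.77.

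Markers of other cells were measured too. Leukocyte markers, 17 of 22 measured and 2 of them dim, had mean levels of 5.69 to 5.78 in NEVKP and 5.59 to 5.76 in SCS, against 5.36 to 5.44 in No Storage, so both stored groups lay wholly above No Storage. Thin limb and thick ascending limb markers, 10 of 17 measured, had mean levels of 8.48 to 9.41 in NEVKP and 7.95 to 8.26 in SCS, against 8.38 to 8.88 in No Storage, so that SCS lay wholly below. The 9.41 was NEVKP replicate 2, and the other NEVKP kidneys read 8.48 and 8.65. Their median difference for NEVKP against No Storage was 0.26 with NEVKP replicate 2 and -0.11 without it. Fat and skeletal muscle markers, 11 of 19 measured and 2 of them dim, read 4.73 to 4.86 in NEVKP and 4.61 to 4.81 in SCS, against 4.90 to 4.96 in No Storage. Red cell markers, 10 of 16 measured and 4 of them dim, read 4.36 to 4.41 in NEVKP and 4.31 to 4.51 in SCS, against 4.46 to 4.65 in No Storage. Endothelial and urothelial marker means overlapped between all groups.

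**Figure D4:**
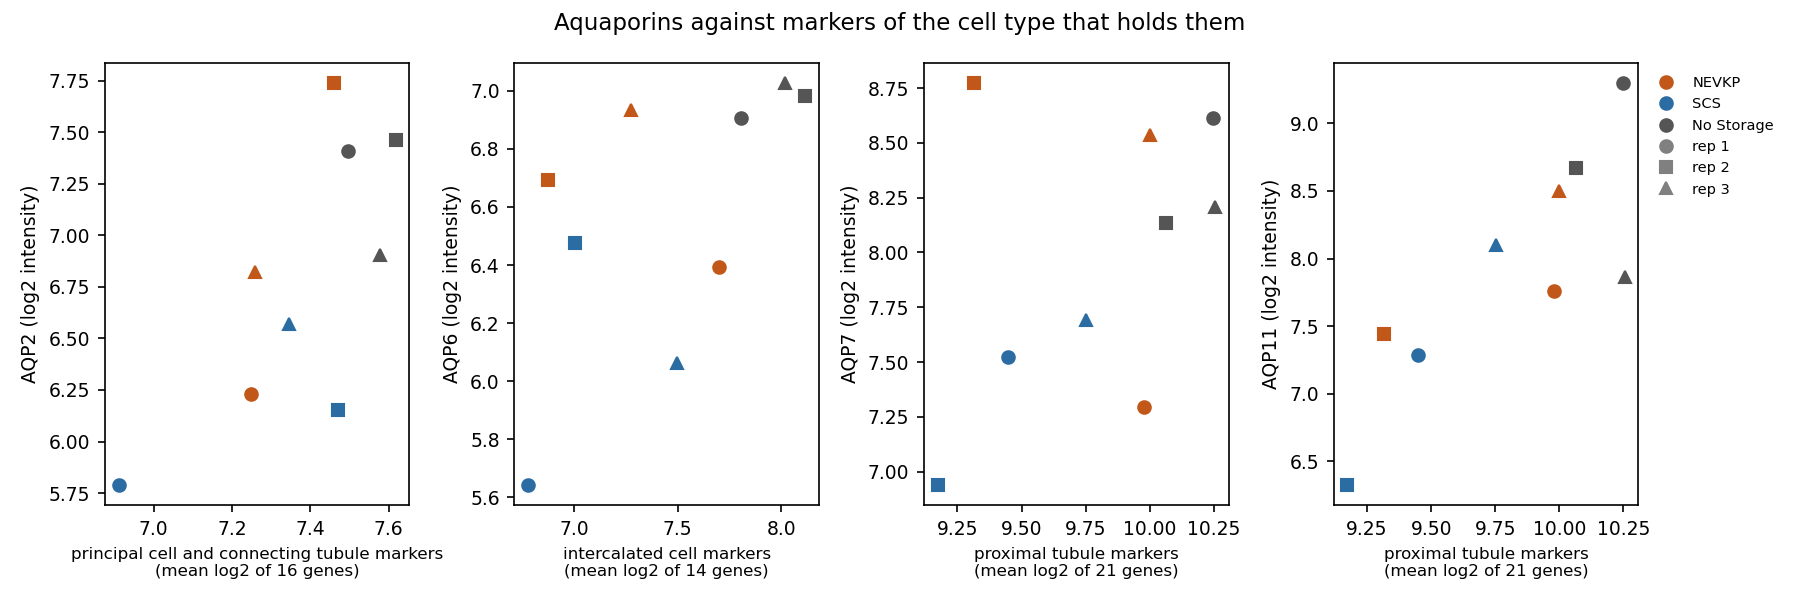
Log2 intensity of AQP2, AQP6, AQP7 and AQP11 (vertical axes) against the mean log2 level of markers of principal, intercalated and proximal tubule cells (horizontal axes), 1 point per kidney, coloured by group with point shapes for replicates. NEVKP replicate 2 lies at the low end of the proximal tubule markers, 9.32, yet has the highest AQP7, 8.77, while its AQP11, 7.44, is low.

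The other vasopressin receptors are AVPR1A, the vascular V1a receptor that intercalated cells also carry in rodents, and AVPR1B, the pituitary receptor. AVPR1A read 4.84, 4.95 and 5.69 in SCS kidneys and 6.93, 4.37 and 5.40 in NEVKP kidneys, against 6.42, 7.12 and 6.70 in No Storage kidneys. SCS lay wholly below No Storage, and NEVKP held both a kidney above 2 of the No Storage kidneys and the lowest kidney of the study. The differences from No Storage were -1.59 in SCS (95% interval -2.75 to -0.42, limma adjusted p = 0.184) and -1.18 in NEVKP (interval -2.35 to -0.02, adjusted p = 0.546). Without NEVKP replicate 2, the kidney at 4.37, the NEVKP difference was -0.58 (interval -1.54 to 0.38, limma adjusted p = 0.895). AVPR1B stayed between 4.66 and 5.07 on all arrays.

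Among genes that carry the vasopressin signal to AQP2, 20 of 29 listed were measured and 0 passed with adjustment in any comparison. PDE4B, a phosphodiesterase that breaks down cyclic AMP, read 8.57, 8.70 and 8.55 in NEVKP kidneys and 8.00, 8.15 and 8.22 in SCS kidneys, against 8.59, 8.64 and 8.88 in No Storage kidneys. SCS lay below both other groups without overlap. The difference was -0.58 for SCS against No Storage (limma adjusted p = 0.0870) and 0.48 for NEVKP against SCS (adjusted p = 0.522). ARRB2, a beta-arrestin that takes activated receptors such as AVPR2 off the surface, differed from No Storage by 0.55 in SCS (limma adjusted p = 0.150) and by 0.50 in NEVKP (adjusted p = 0.444). ADCY3, an adenylyl cyclase, differed by 0.42 in SCS (adjusted p = 0.215). Over the 20 genes, 2 were higher and 2 lower in SCS at an unadjusted p under 0.05, near the 7.75% and 7.79% of all probe sets, and the median difference was -0.02. The mean level of the 20 genes, which include AVPR1A, was 7.22 to 7.28 in SCS. It was 7.31 to 7.33 in No Storage and 7.30 to 7.41 in NEVKP. AVPR1A alone differed by -1.59 in SCS, the largest difference of the 20, and the mean without it was not computed. Of the 20 genes, 12 had a mean below No Storage in SCS and 8 above, against 48.3% of all probe sets below.

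Genes of AQP2 trafficking and turnover, 23 measured of 35, and transcription factors linked to AQP2, 23 of 27, likewise had 0 past the threshold with adjustment. In SCS against No Storage, 3 of 23 trafficking genes were higher at an unadjusted p under 0.05, against 7.75% of all probe sets: ANXA2, an annexin of membrane fusion, by 0.73, SIPA1, a Rap GTPase activator, by 0.44, and TPM1, an actin-binding tropomyosin, by 0.40. In NEVKP against No Storage, TPM1 differed by 0.41 (limma adjusted p = 0.444) and MYO5B, the myosin motor of recycling vesicles, by -0.48 (adjusted p = 0.468). Without NEVKP replicate 2 these were 0.32 and -0.29, with unadjusted limma p of 0.0541 and 0.0695. In SCS against No Storage, 3 of 23 transcription factors were higher and 1 lower (HOXD8, -0.38) at an unadjusted p under 0.05. The shares over all probe sets were 7.75% and 7.79%. In NEVKP 2 were higher and 2 lower, against 9.07% in either direction, and 14 of 23 differences lay below 0, against 52.3%. The lower ones, FOXI1 and NR1H4, differed by -0.54 and -0.76, and by -0.34 and -0.50 without NEVKP replicate 2. JUN, a stress-induced transcription factor, differed from No Storage by 0.75 in SCS (limma adjusted p = 0.0905) and 0.54 in NEVKP (adjusted p = 0.439), and NFKB1 by 0.38 and 0.31. ELF5, an ETS factor of the principal cell, read 3.72, 5.12 and 4.81 in SCS kidneys, against 5.59, 5.04 and 5.13 in No Storage kidneys, and was named after its values were seen. SCS replicate 1 was the lowest kidney for ELF5 and also for AQP2, at 5.79.

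Of the medullary osmotic response, HSPA4L, a heat shock protein induced by high salt, differed by -0.51 and SLC12A1, the sodium, potassium and chloride transporter that salts the medulla, by -0.78 in SCS against No Storage (limma adjusted p = 0.239 and 0.265). Both had SCS wholly below No Storage. SLC12A1 read 10.84, 12.14 and 11.33 in NEVKP kidneys, against 10.20, 10.39 and 10.42 in SCS kidneys, a difference of 1.10 (limma adjusted p = 0.563), and NEVKP lay wholly above SCS. It was 0.75 without NEVKP replicate 2. The median difference over the 13 genes was 0.40 for NEVKP against No Storage with all arrays and -0.029 without NEVKP replicate 2, and it was -0.04 for SCS against No Storage.

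Of 7 further aquaporins, 5 had a probe set of their own: AQP5, AQP8, AQP9, AQP10 and MIP, the lens channel. None differed at an unadjusted p under 0.05 in any comparison. AQP9, a channel of leukocytes and liver, read 6.65 in SCS replicate 1, at least 1 log2 unit above the other 8 arrays, which ran from 4.49 to 5.57. Of 17 leukocyte markers, 3 had their highest value in that kidney. AQP5, the only aquaporin with 2 probe sets, differed between SCS and No Storage by -0.20 and -0.15 in them.

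Over the 9 arrays, which share the group structure, each gene was set beside 9770 others by Pearson correlation of log2 values, as a description. The genes most like AQP2 were NFYC (0.971), SCAMP5 (0.962) and GNMT (0.959), and those most like AQP3 were BTG1 (0.959), RASSF8 (0.941) and ANKH (0.941). For AQP6 they were MTMR3 (0.953), CCDC160 (0.952) and SLC15A2 (0.949), and for AQP7 CEND1 (0.979), GCM1 (0.966) and AADAT (0.943). For AQP11 they were ENO4 (0.948), USH1C (0.934) and GSS (0.930), and for AVPR2 LTA (0.961), AIFM3 (0.923) and SHARPIN (0.914). No gene appeared for more than 1 of them. Among the 7 genes themselves, AQP2 and AQP7 were most alike over all arrays, at 0.845. After group means were removed AQP4 and AQP7 were most alike, at 0.775, but AQP4 was dim, with values of 2.28 to 2.75. AQP2 and AQP7 lay at 0.707 there. AVPR2 lay at -0.07 with AQP2.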

How the data were processed

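Per the submitters' processing notes, the authors made the deposited log2 intensities per probe set with RMA (background correction, scaling between arrays, summary per probe set); the notes also name limma 3.34.14. The array's annotation gave 13323 of 19124 probe sets 1 symbol, 357 several and 5444 none. A gene was represented by its probe set with the highest mean over 9 arrays; all 7 measured genes had 1. Scanner files were not used here.

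All probe sets and arrays entered limma 3.58.1 (lmFit and eBayes, R 4.3.3) with group as the only factor. Benjamini-Hochberg adjustment ran over all probe sets within each comparison, with a threshold of 0.05, and every adjusted p comes from limma. Intervals are 95% and unadjusted. Each array is a separate animal. Dim means a mean log2 value under 3.92. The fit was tested on simulated data. Permutation of 3 against 3 arrays cannot give an exact p under 0.1 and was not used.

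The text names all members, up to 4 genes per pathway list and comparison by smallest p, and the 3 genes most correlated with each member that was not dim; others are said to be named after seeing values. Marker genes are named as examples. Members and lists were chosen with earlier results of these data known. Alternatives tried were array weights, a prior that is trended and robust, a block for the replicate number, arrays centred on their medians, genes averaged over their probe sets, a fit without dim probe sets, a fit of only the groups compared, and leaving out each array in turn.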

Additional observations from a re-analysis of the deposited data

How the results depend on the processing

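None of the 7 genes passed the adjusted threshold in any comparison or in the F test under any alternative run. Of 333 values of single genes under alternatives, 323 kept their direction and 10 turned, all of genes whose difference was at most 0.42 in size. AVPR2 in SCS against No Storage was -0.079 with array weights, -0.039 with centred arrays and -0.13 to 0.081 as single arrays were left out. AQP4 there was -0.099 to 0.042, and in NEVKP against No Storage AQP2 was -0.73 to 0.022, AQP3 -0.040 to 0.76 and AQP7 -0.40 to 0.34. Counts of genes at an unadjusted p under 0.05 moved more. For NEVKP against SCS, 2 became 1 with array weights and with the compared groups alone, and 0 (without NEVKP replicate 3 or SCS replicate 1) to 5 (without NEVKP replicate 1) as single arrays were left out. Of all 19124 probe sets, 812 were higher and 725 lower at that p without NEVKP replicate 1. These counts were 744 and 678 without NEVKP replicate 3, and 675 and 720 without SCS replicate 1. For SCS against No Storage 4 became 2 without SCS replicate 2 or No Storage replicate 1 and stayed 4 without any other array. Of all probe sets, 1218 were higher and 1141 lower without SCS replicate 2, and 1152 and 1158 without No Storage replicate 1. For NEVKP against No Storage the count was 0, or 1 without NEVKP replicate 2 (AQP2), where 671 of all probe sets were higher and 512 lower. Among the alternatives, counts over all probe sets were made only for fits that left out an array. Replicate numbers showed no sign of pairing the kidneys. Between groups, deviations from group means correlated at -0.14 to 0.13 for the same number and at -0.15 to 0.17 for different numbers. With 3 arrays per group these values cannot exclude a pairing. The fit with the replicate number as a block gave 0 genes past the adjusted threshold in each comparison, and 4, 0 and 3 at an unadjusted p under 0.05 for SCS against No Storage, NEVKP against No Storage and NEVKP against SCS; 1 of 9 arrays correlated best with its own number. Signal limits AQP4, whose probe set was dim. The values of pathway and marker lists without NEVKP replicate 2, and the calls over all probe sets without each array, were chosen after seeing the data.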
